A study of Mus musculus with 6 samples.

Results

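Expression was examined for 10 genes that encode TRAF adaptors, cIAP ubiquitin ligases, the kinase NIK and the A20 and ABIN1 brakes of NF-κB signalling. They were chosen by symbol (Traf1, Traf2, Traf3, Traf5, Traf6, Birc2, Birc3, Map3k14, Tnfaip3 and Tnip1) and matched 10 of the 55401 genes in the read count table, 1 row each. The transcripts of Tnip1, Birc3, Traf2 and Traf1 were higher, by 1.57-fold, 1.40-fold, 1.26-fold and 1.23-fold, with supernatant of NFL-activated macrophages than with control supernatant. The cultured cells were mouse cells labelled T cell. Traf3, Traf5, Traf6, Birc2 and Map3k14 did not pass the test, and Tnfaip3 was at the floor in every library.

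RNA was sequenced in 6 samples labelled T cell, 3 per group. According to the deposited design, spleen T cells were selected with CD8a beads and cultured in medium with 2% serum, of which 50% was macrophage supernatant. Both supernatants came from macrophages grown out of CD11b-selected spleen cells over 7 days with 50 ng/mL M-CSF, so both groups shared this medium. The control macrophages were untreated, and the others received 5 µg/mL NFL (neurofilament light chain, an axonal structural protein) for 24 h, prepared as a freeze-thawed lysate of sciatic nerve, so the preparation can hold other nerve proteins. The co-culture methods of the study give a lower NFL concentration. Its animal methods name a commercial NFL product and list nerve lysate as a separate treatment. The deposited design and the methods of the study thus differ on what the NFL was. Strain, sex and age of the donors, and whether replicates came from separate animals or cultures, are not given for these samples, so p-values measure only the spread between samples, which may be technical.

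TRAF proteins are adaptors that bind the tails of TNF receptor family members, and in T cells they carry signals of costimulatory receptors such as 4-1BB and OX40. In unstimulated cells a complex of TRAF2, TRAF3 and the ligases cIAP1 and cIAP2 (encoded by Birc2 and Birc3) keeps NIK (encoded by Map3k14) low by ubiquitinating it. When receptors recruit that complex NIK accumulates, and the precursor p100 (encoded by Nfkb2) is processed into the partner of RelB, which is the non-canonical pathway. In the canonical pathway TRAF6, TRAF2 and the cIAPs build ubiquitin chains that activate the IKK complex. The deubiquitinase A20 (encoded by Tnfaip3) and its partner ABIN1 (encoded by Tnip1) restrain that step. Several of these genes, Birc3, Traf1, Tnfaip3 and Tnip1 among them, are themselves known NF-κB targets.

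The libraries held 15843045 to 24639756 counts in the control group and 16190568 to 17796228 in the NFL group, and a floor of 3 counts corresponded to 0.122 to 0.188 CPM. CPM, counts scaled to library size, uses sizes adjusted by TMM, a factor that lay between 0.994 and 1.01. Among T-cell genes, Thy1 stood at 1575 to 1709 CPM, Cd3g at 6.05 to 8.86 CPM, Lck at 3.67 to 5.90 CPM and Cd3d at 2.32 to 4.82 CPM, while Cd2 had 0 counts in all 6 libraries. Cd3e fell from a mean of 61.0 to 50.2 CPM, with no overlap between groups (edgeR adjusted p = 0.000572). Cd8a was at 3.20 to 4.46 CPM, Cd8b1 at 0.870 to 1.57 CPM and Cd4 at 23.3 to 27.6 CPM, so the bead-selected marker was low in RNA. Low Cd8a and Cd8b1 beside higher Cd4 and absent Cd2 leave the cell type unsettled. The cells are called T cells here only because they are labelled so. The summed level of the 6 T-cell markers, nearly all of it Thy1, was 1693 to 1789 CPM in control and 1639 to 1735 CPM in NFL libraries. Of 10 macrophage markers, 8 had 3 counts or fewer in every library, C1qa, C1qb, C1qc, Itgam, Cd14 and Mrc1 among them at 0. The macrophage sum, nearly all of it Cd68, was 24.5 to 27.5 CPM in control and 19.2 to 23.4 CPM in NFL libraries, with no overlap. The sum of 6 B-cell markers, mostly Pax5, was 12.1 to 13.2 CPM in control and 11.6 to 14.1 CPM in NFL libraries. That of 5 natural killer markers was 459 to 483 and 441 to 460 CPM. The latter sum was mostly Eomes, which the study also used as an exhaustion marker of CD8+ T cells. Among the natural killer markers, Klrb1c fell from a mean of 31.7 to 22.4 CPM, again with no overlap (edgeR adjusted p = 2.43e-06). Klre1 had at most 4 counts in a library, and Ncr1 and Klra8 had 0 counts. Their part in the results on the 10 genes was not tested. In bulk samples, fewer cells of a type and less RNA per cell cannot be told apart.

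The question was whether the regulators that set NF-κB activity differ in T cells cultured with the supernatant of NFL-activated macrophages. Any NFL preparation carried over in that supernatant cannot be told apart here from factors that the macrophages released. Of 14082 genes tested with edgeR's quasi-likelihood test, 986 passed an adjusted p of 0.05, which is 7.00%, with 489 higher (3.47%) and 497 lower. That count was 508 without NFL replicate 3 and 616 without NFL replicate 2, and scaling by library size alone split it into 372 higher and 600 lower. Of the 10 genes, 9 could be tested, and 4 passed, all of them higher with NFL supernatant. The 9 had a median log2 fold change of 0.10, against -0.00099 over all genes tested. In 5 of the 9, every NFL library lay above every control library, against 11.5% of all genes tested. These were Tnip1, Birc3, Traf2, Traf1 and Traf3, each with an exact two-sided permutation p of 0.1, the smallest that 3 against 3 samples allow. The 10 genes were chosen with earlier results of these data known, so none of these counts or contrasts is independent evidence. Birc3, Traf2 and Traf3 are also among the genes that the study itself displayed from these samples.

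**Figure D1:**
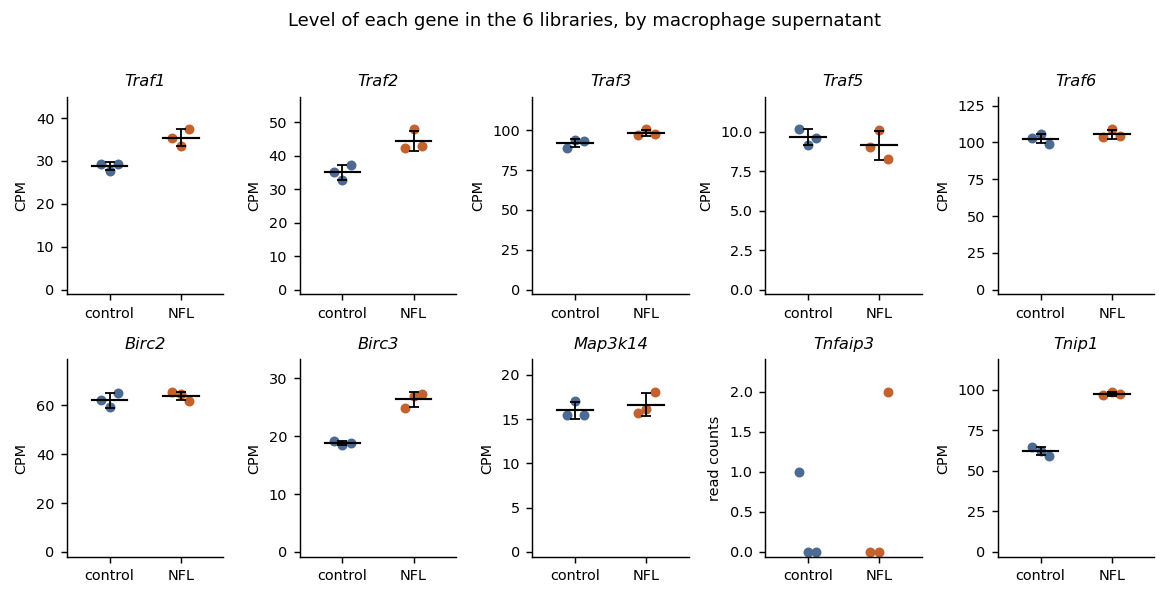
Level of each of the 10 genes in the 3 control and 3 NFL libraries, in TMM-scaled CPM (read counts for Tnfaip3). Points are libraries, horizontal lines are means and bars are ± SD; for Tnip1, Birc3, Traf2, Traf1 and Traf3 all NFL points lie above all control points, and Tnfaip3 never exceeds 2 counts.

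The promoters of these genes are given with the motif that NF-κB is known to bind, because several of the genes are NF-κB targets. RefSeq windows (GRCm38.p6) of 250 bases before to 50 bases after the annotated start were given for all 10 genes, in 12 windows. For 7 of the 10 genes, the 50 bases after a start occur in a GENCODE transcript of the gene. Both strands were searched, overlapping matches included, for the κB consensus, for the looser GGGNNNNNCC and for GGGNNTTTCC. GGGNNTTTCC is narrower than the looser motif but is not nested in the consensus. For each motif the 10 genes were counted by gene over their 12 windows, whereas the background is a share of windows, so the units differ. The κB consensus was found in 3 of the 10 genes (Traf3, Tnfaip3 and Tnip1), and in 4.51% of 32851 windows of 27025 genes. GGGNNNNNCC was found in 8 of the 10 genes and in 50.8% of all windows, and GGGNNTTTCC in 3 (Traf2, Traf3 and Tnfaip3) and in 1.63% of all windows. The 4 windows below are shown because they set genes that rose beside genes that did not, with and without a consensus match. They read 5′ to 3′ on the strand of the gene, and capitals mark consensus matches on either strand.
Tnip1 (chr11:54962891-54963190, minus strand, the gene with the highest fold change): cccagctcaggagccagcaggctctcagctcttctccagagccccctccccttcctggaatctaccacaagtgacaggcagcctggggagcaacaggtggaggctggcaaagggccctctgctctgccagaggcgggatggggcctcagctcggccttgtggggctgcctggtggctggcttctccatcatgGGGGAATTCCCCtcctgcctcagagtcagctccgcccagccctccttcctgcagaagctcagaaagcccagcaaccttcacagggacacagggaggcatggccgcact
Birc3 (chr9:7873121-7873420, minus strand, higher with NFL supernatant, no consensus match): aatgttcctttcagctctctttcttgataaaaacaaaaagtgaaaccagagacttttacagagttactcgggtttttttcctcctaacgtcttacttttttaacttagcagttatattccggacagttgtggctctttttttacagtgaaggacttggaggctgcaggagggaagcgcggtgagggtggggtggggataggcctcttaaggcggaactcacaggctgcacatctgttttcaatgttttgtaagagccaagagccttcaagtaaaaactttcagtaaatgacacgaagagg
Traf3 (chr12:111166120-111166419, plus strand, not past the threshold, 1 match): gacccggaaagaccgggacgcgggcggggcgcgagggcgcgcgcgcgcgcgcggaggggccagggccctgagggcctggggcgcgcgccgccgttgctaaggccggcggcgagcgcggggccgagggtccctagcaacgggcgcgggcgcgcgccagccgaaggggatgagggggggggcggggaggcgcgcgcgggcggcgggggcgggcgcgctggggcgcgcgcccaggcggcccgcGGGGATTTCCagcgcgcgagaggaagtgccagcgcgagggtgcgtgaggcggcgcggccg
Tnfaip3 (chr10:19015361-19015660, minus strand, at the floor, 2 matches): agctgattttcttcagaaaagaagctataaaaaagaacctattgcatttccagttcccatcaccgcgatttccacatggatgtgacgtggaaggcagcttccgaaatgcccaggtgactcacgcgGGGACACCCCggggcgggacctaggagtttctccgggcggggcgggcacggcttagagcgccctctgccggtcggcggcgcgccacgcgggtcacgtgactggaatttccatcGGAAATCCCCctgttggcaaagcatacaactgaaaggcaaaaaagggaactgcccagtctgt
In Tnip1 the match is a palindromic run whose first base lies 58 bases before the start, read as a match from either strand and in 3 overlapping registers. In Traf3 the match begins 10 bases before the start, and in Tnfaip3 the matches begin 125 and 12 bases before it. Starts here are those of RefSeq. In GENCODE, Tnfaip3 begins farther upstream, so its matches lie within the gene as placed there. Birc3 held only the looser GGGNNNNNCC, 57 bases before the start, and Traf2 held GGGNNTTTCC from base 32, counted from the start as base 1. Among the 4 genes that passed the test, 1 held the consensus, and of the other 6, 2 did. A match describes letters in the window and is neither a bound site nor a cause, and no match says only that these letters are absent there.

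Among the TRAF adaptors, Traf2 and Traf1 rose with NFL supernatant, and Traf3, Traf5 and Traf6 did not pass the test. Traf2 (ENSMUSG00000026942.13, chr2:25517982-25546940, minus strand) is the adaptor that brings the cIAPs to TNF receptors. Its level was 35.1, 32.8 and 37.2 CPM in the control libraries and 42.4, 48.0 and 43.0 CPM in the NFL libraries. The groups did not overlap, and NFL replicate 2 was the highest. The log2 fold change was 0.34 (SE 0.066, edgeR adjusted p = 0.000324), a 1.26-fold rise with a 95% interval of 1.15 to 1.38. Traf1 (ENSMUSG00000026875.14, chr2:34941750-34961772, minus strand), an adaptor without the RING domain of the other family members that forms complexes with TRAF2, was at 29.3, 27.7 and 29.2 CPM in control and 35.3, 33.5 and 37.4 CPM in NFL libraries. All 3 NFL libraries lay above all 3 control libraries. Its log2 fold change was 0.30 (SE 0.070, edgeR adjusted p = 0.00364). Without NFL replicate 3, the highest of its libraries, it was 0.26 with an edgeR adjusted p of 0.0626, above the threshold.

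Traf3 (ENSMUSG00000021277.16, chr12:111166370-111267153, plus strand), the adaptor that hands NIK to the cIAPs, was at 89.0, 93.6 and 93.5 CPM in control and 97.2, 100.6 and 97.5 CPM in NFL libraries. The groups did not overlap, with control replicate 1 the lowest library. The log2 fold change was 0.10 (SE 0.043), with an unadjusted p of 0.0251 and an adjusted p of 0.174 in edgeR, and its 95% interval ran from 1.01-fold to 1.14-fold. Traf6 (ENSMUSG00000027164.8, chr2:101678429-101701669, plus strand) serves the IL-1 and Toll-like receptor pathways and was at 103, 105 and 99.1 CPM in control and 104, 109 and 104 CPM in NFL libraries. The groups overlapped, the log2 fold change was 0.04 (edgeR adjusted p = 0.633) and the 95% interval was 0.973-fold to 1.09-fold. Traf5 (ENSMUSG00000026637.13, chr1:191997205-192092559, minus strand), a relative of TRAF2 that acts downstream of OX40 and CD27, was the single tested gene of the 10 with a lower mean. It stood at 10.2, 9.16 and 9.62 CPM in control and 9.01, 10.1 and 8.27 CPM in NFL libraries. The groups overlapped, and the log2 fold change of -0.08 (SE 0.124, edgeR adjusted p = 0.789) had the widest interval of the 9, from 0.794-fold to 1.12-fold. Traf5 shares 205 exonic bases with the antisense gene Gm26879, which had at most 5 counts in a library, and it also contains the microRNA gene Mir3473c, at 0 counts. Genes annotated inside Traf2 (Gm13433), Traf3 (4930595D18Rik), Traf5 (Gstp-ps) and Tnip1 (Gm12230) share 0 exonic bases with them and had at most 13 counts in a library.

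Of the ligase genes, Birc3 rose, and its paralog Birc2 did not pass the test. The genes lie next to each other on chromosome 9, Birc2 (ENSMUSG00000057367.12) at chr9:7818227-7837064 and Birc3 (ENSMUSG00000032000.17) at chr9:7848699-7873186, both on the minus strand. Birc3, which encodes cIAP2, was at 19.1, 18.5 and 18.7 CPM in control and 24.9, 27.0 and 27.3 CPM in NFL libraries. The control libraries were nearly equal and the NFL libraries all lay above them. The log2 fold change was 0.49 (SE 0.081, edgeR adjusted p = 2.31e-05), a 1.40-fold rise with a 95% interval of 1.25 to 1.57. Birc2, which encodes cIAP1, was at 62.0, 59.1 and 65.1 CPM in control and 65.2, 64.5 and 61.9 CPM in NFL libraries. The groups overlapped, with a log2 fold change of 0.04 (SE 0.052, edgeR adjusted p = 0.780) and a 95% interval of 0.954-fold to 1.10-fold. Of the 50-base stretches of Birc3 transcripts, 1.28% also occur in Birc2 and 7.56% in some other gene, so a small share of reads could be assigned to either.

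The ratio of Birc3 to Birc2 counts within a library does not depend on scaling between libraries, and it compares the paralogs directly. It was 0.309, 0.312 and 0.288 in control and 0.382, 0.418 and 0.441 in NFL libraries. Every NFL library had a higher ratio than every control library. The mean rose from 0.303 ± 0.013 to 0.414 ± 0.030 (SD, n = 3), a log2 difference of 0.45 (SE 0.071), with an exact two-sided permutation p of 0.1, and 0.3 after Benjamini-Hochberg adjustment over 3 ratios. The ratio of Traf1 to Traf2, both of which rose, was 0.822 ± 0.033 in control and 0.801 ± 0.090 in NFL libraries (SD, n = 3, exact permutation p = 0.8, adjusted 0.8). NFL replicate 2 had the lowest of these ratios, at 0.699, and without it the log2 difference turned from -0.04 to 0.05. The ratio of Map3k14 to Traf3, the kinase to the adaptor that leads to its degradation, was 0.174 ± 0.0085 in control and 0.169 ± 0.015 in NFL libraries (SD, n = 3, exact permutation p = 0.6, adjusted 0.8). Both of these ratios overlapped between groups. No ratio of Tnfaip3 to Tnip1 is given, because Tnfaip3 had 0 counts in 4 of 6 libraries.

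**Figure D2:**
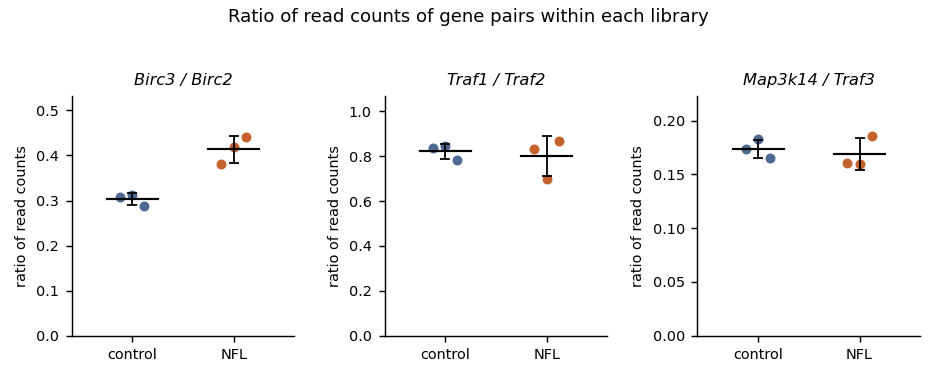
Ratio of read counts of 2 genes within each library, for 3 gene pairs, with points for libraries, horizontal lines for means and bars for ± SD. The Birc3 to Birc2 ratios of the NFL libraries (0.382 to 0.441) lie above those of the control libraries (0.288 to 0.312), and the other ratios overlap.

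Map3k14 (ENSMUSG00000020941.7, chr11:103219762-103267472, minus strand) encodes NIK, the kinase of the non-canonical pathway, whose level is set mainly through protein turnover. Its transcript was at 15.4, 17.1 and 15.5 CPM in control and 15.7, 16.1 and 18.1 CPM in NFL libraries. The groups overlapped and NFL replicate 3 was the highest. The log2 fold change was 0.06 (SE 0.096, edgeR adjusted p = 0.798), with a 95% interval of 0.914-fold to 1.19-fold. Map3k14 shares 135 exonic bases with 1700028N14Rik on the same strand, which had at most 12 counts in a library.

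Of the A20 and ABIN1 pair, Tnip1 had the highest fold change of the 10 genes and Tnfaip3 was barely detected. Tnip1 (ENSMUSG00000020400.17, chr11:54910785-54962917, minus strand) encodes ABIN1, a ubiquitin-binding partner of A20. It was at 64.7, 62.5 and 59.4 CPM in control and 96.7, 98.9 and 97.2 CPM in NFL libraries. The NFL libraries differed little among themselves, and the gap to the control libraries was many times the spread within either group. The log2 fold change was 0.65 (SE 0.047, edgeR adjusted p = 9.71e-16), a 1.57-fold rise with a 95% interval of 1.47 to 1.68. By p it was gene 11 of the 14082 tested, and by fold change gene 219. None of the 50-base stretches of its transcripts occurs in another gene. Its promoter window, printed above, holds the palindromic match.

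Tnfaip3 (ENSMUSG00000019850.11, chr10:19000910-19015657, minus strand) encodes A20, which T cells are known to express. Here it had 1, 0 and 0 counts in control and 0, 0 and 2 counts in NFL libraries, with no order between the groups. A total of 1 count among 64782719 in control allows at most 0.086 CPM and a total of 2 among 51286224 in NFL libraries at most 0.141 CPM (upper limits of exact 95% Poisson intervals, which cover counting error only). Each library lies under the floor of 3 counts, so no fold change is given and a difference was not detectable at this depth. None of the 50-base stretches of Tnfaip3 transcripts occurs in another gene. Of the genes of its protein partners, Tnip1 and Tax1bp1 were well above the floor, and Tnip3 (ABIN3) had 0 CPM in both groups.

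**Figure D3:**
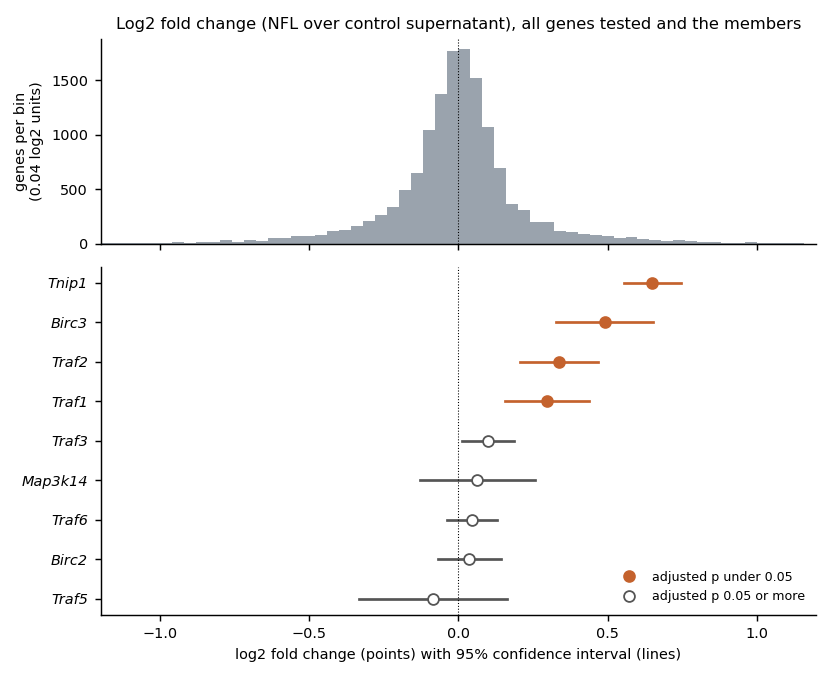
Histogram of the log2 fold changes of the genes tested (top, bins of 0.04, genes beyond the axis not drawn) and the log2 fold change of each tested member with its 95% confidence interval (bottom, filled where the edgeR adjusted p was under 0.05). The 4 filled points, from 0.30 for Traf1 to 0.65 for Tnip1, lie in the upper tail of the histogram, and the 5 open points lie between -0.08 and 0.10.

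To compare levels between genes, CPM was divided by the length of exonic sequence in kb. Tnip1 was the most abundant of the 10 transcripts in both groups, at 17.6 ± 0.74 CPM per kb in control and 27.6 ± 0.33 in NFL libraries (SD, n = 3). Birc2, Traf6 and Traf3 followed at 13.6, 13.0 and 12.5 CPM per kb in control and 13.9, 13.4 and 13.4 in NFL libraries, and neighbours among these 3 overlapped in both groups. Traf2 came next at 6.87 ± 0.43 and 8.71 ± 0.60 CPM per kb, then Birc3 at 3.75 and 5.27, Traf1 at 3.26 and 4.02, Map3k14 at 2.44 and 2.54, and Traf5 at 2.11 and 2.00. From Traf2 to Traf5 the ranges of neighbours did not overlap within either group. By group means the order of the 9 tested genes was the same with either supernatant, although it was not resolved among Birc2, Traf6 and Traf3. Traf3 and Traf6 made up 67.6% of the summed per-kb level of the 5 TRAF genes in control and 64.5% in NFL libraries. Birc3 was below its paralog Birc2 per kb in both groups.

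**Figure D4:**
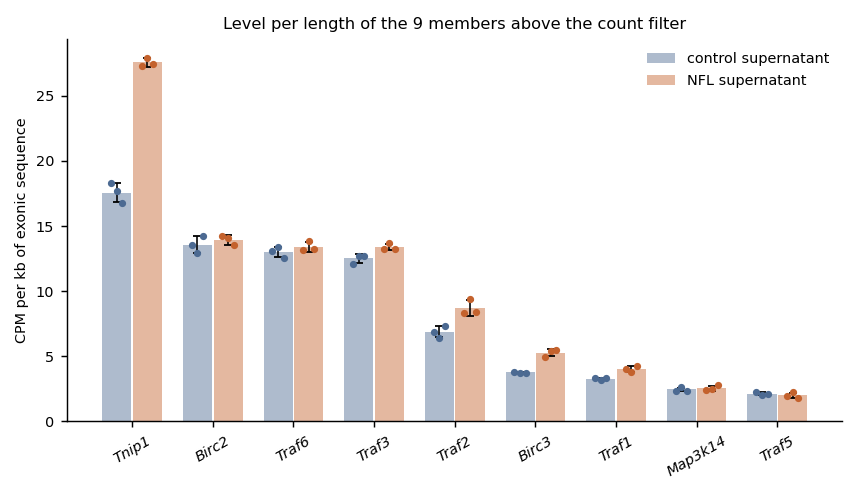
Level of the 9 tested members in CPM per kb of exonic sequence, with bars for group means, error bars for ± SD and points for the 3 libraries of each group. Tnip1 is the highest in both groups (17.6 and 27.6), Birc2, Traf6 and Traf3 lie close together between 12.5 and 13.9, and Map3k14 and Traf5 are the lowest of those drawn.

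The genes around these regulators were described by role, from 5 lists of 74 genes, of which 67 could be tested. Of these 67, 12 passed the test, 10 higher and 2 lower, or 17.9% against 7.00% of all genes. The median log2 fold change of the 67 was 0.05. The lists were chosen with earlier results of these data known, so these shares are descriptions and no evidence of enrichment. The list of NF-κB subunits, IκB inhibitors and IKK genes had the most, with 4 of 11 genes higher and none lower and a median of 0.13. The 4 were Relb and Nfkb2 of the non-canonical pathway and the canonical inhibitors Nfkbia and Nfkbib, and no IKK gene passed. Relb, the partner of processed p100, rose from 18.2 ± 0.30 to 37.7 ± 1.24 CPM (SD, n = 3) with no overlap between groups, a log2 fold change of 1.05 (edgeR adjusted p = 6.11e-16). Nfkb2, which encodes p100, had a log2 fold change of 0.72 (edgeR adjusted p = 1.05e-18). For Nfkbia, the inhibitor IκBα, it was 0.98 (edgeR adjusted p = 7.42e-15). Nfkbib, another inhibitor, had a value of 0.28 (edgeR adjusted p = 0.0470) that passed the threshold in 4 of 15 settings only. The kinase genes Chuk and Ikbkb, which encode the IKK subunits, stood at 0.07 and -0.04 and did not pass.

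Among 17 receptors that bind TRAFs or lie upstream of them, 12 could be tested, and 2 rose and 1 fell (median log2 fold change 0.04). Tnfrsf9 (4-1BB, which signals through TRAF1 and TRAF2) rose from 417, 414 and 402 to 518, 502 and 524 CPM, a log2 fold change of 0.33 (edgeR adjusted p = 2.14e-12). Tnfrsf8 (CD30) had a log2 fold change of 0.26 (edgeR adjusted p = 0.000278). Il18r1, a receptor chain upstream of TRAF6, had one of -0.40 (edgeR adjusted p = 0.0170), a call made in 11 of 15 settings. It was lost with the DESeq2 Wald test (adjusted p = 0.0771), without NFL replicate 1, without NFL replicate 3 and without control replicate 2.

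Among the 14 tested A20 partners, ubiquitin ligase subunits and deubiquitinases, 2 rose and 1 fell (median log2 fold change 0.03). Otulin, which removes linear ubiquitin, rose with a log2 fold change of 0.21 (edgeR adjusted p = 0.00183), and Cyld, a deubiquitinase of TRAF2 and other targets, with one of 0.14 (edgeR adjusted p = 0.0300). Cyld passed in 9 of 15 settings. It did not pass with the DESeq2 Wald test (adjusted p = 0.0771), with library size alone or with no filter. Nor did it pass without control replicate 1, NFL replicate 2 or NFL replicate 3. Tax1bp1, which helps A20 reach its targets, had a log2 fold change of -0.12 (edgeR adjusted p = 0.00666), a call lost without NFL replicate 1. Of 8 genes of other IAP family members and their antagonists, 1 passed the test, higher with NFL supernatant, and Xiap, a caspase inhibitor of that family, stood at -0.01 and did not pass. Of 22 other TRAF family and TRAF-associated genes, 1 passed: Map3k7, the kinase TAK1, with 0.16 (edgeR adjusted p = 0.00631), a call lost without NFL replicate 2. Traf4 and Traf7, the remaining TRAF genes, stood at 0.02 and -0.04 and did not pass.

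**Figure D5:**
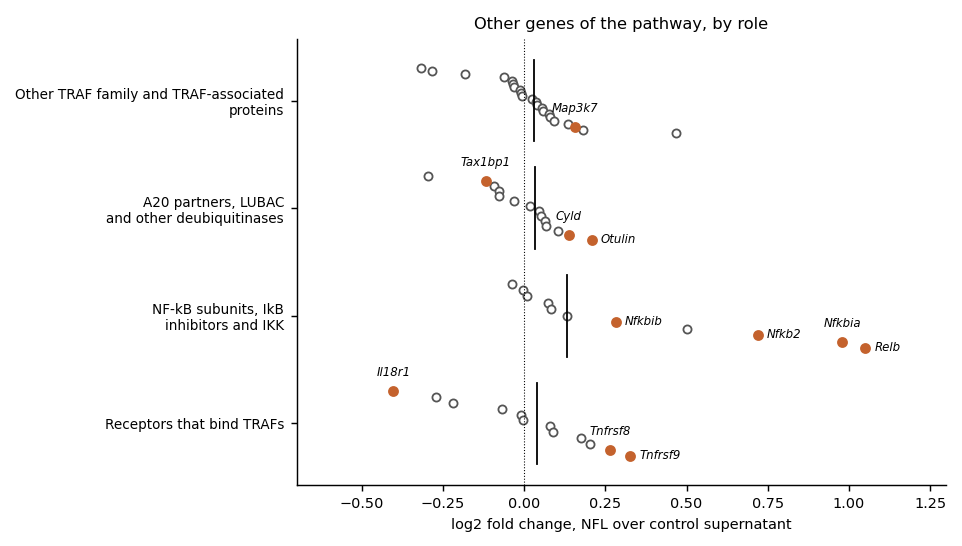
Log2 fold change of 59 tested pathway genes other than the 10 members, in 4 of the 5 role lists (the IAP list is not drawn), with filled points for an edgeR adjusted p under 0.05, open points for the rest and a vertical line at the median of each list. Relb, Nfkbia and Nfkb2 lie farthest to the right, and the medians lie between 0.03 and 0.13.

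To find transcripts whose pattern over the 6 libraries was most like that of the 9 tested members, the members' log2 CPM values were standardised and averaged, and 8754 other genes with a mean of at least 10 CPM were compared with that profile. The 5 with the highest Pearson correlation were Zdhhc17 (r = 0.996), Rel (0.995), Cct3 (0.992), Cyld (0.991) and Cct2 (0.991). The members' own correlation with the average was 0.97, 0.97 and 0.96 for Birc3, Traf2 and Tnip1, 0.90 and 0.85 for Traf3 and Traf1, 0.63, 0.44 and 0.26 for Traf6, Birc2 and Map3k14, and -0.19 for Traf5. Each member is itself part of that average, which raises its own r. These correlations are descriptions over 6 libraries that differ by group, so a shared difference between groups alone gives a high value.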

How the data were processed

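Poly(A)-selected RNA of 6 samples was sequenced on an Illumina instrument, and the table deposited by the authors holds raw counts, 1 whole number per gene and sample. Aligner, counter and strandedness: not given in the sources used here. The submitters' processing notes name GRCm39, R 4.2.1 and limma 3.54.2 without a role. All 10 identifiers and versions were identical to GENCODE M21 (GRCm38), whose positions and exon lengths are used. How reads in overlapping genes were counted is not known.

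Columns were mapped to samples by group letter and number, with 0 left over. Genes were kept by filterByExpr (minimum count 10, minimum total 15), scaled by TMM and tested with edgeR 4.0.16 (R 4.3.3) in a quasi-likelihood fit over 6 samples with no covariate, with Benjamini-Hochberg adjustment over all 14082 genes and a threshold of 0.05. The biological coefficient of variation was 3.48%. Shared sequence was counted as 50-base stretches of GENCODE transcripts. The fit was also run on simulated counts with the same dispersion for every gene. That run does not check the fit for differing spread between genes or for the smallest changes given here. Alternatives were DESeq2 1.42.0, limma-voom (limma 3.58.1), other scalings, filters and thresholds, a replicate block, thinned counts and leaving out each library. The 10 genes and the lists were chosen with earlier results of these data known. Named were the 10 genes, up to 4 genes past the threshold per list with the largest change, the 5 genes most like the members' profile (pseudocount 0.5 CPM), cell type markers and genes overlapping a member. Other genes given with values that did not pass (Chuk, Ikbkb, Xiap, Traf4 and Traf7) were chosen after their values were seen. The gene that passed in the IAP list is counted but not reported here. The single-cell, cytometry and imaging data of the study were not analysed here.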

Additional observations from a re-analysis of the deposited data

How the results depend on the processing

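The count of members past the threshold was 4 under every alternative run except without NFL replicate 3, where it was 3 (Traf1 was lost). Of 126 log2 fold changes of the 9 tested members under 14 alternatives, 124 kept direction and side of the threshold, and the exceptions were Traf1 and Map3k14 (-0.0038), both without NFL replicate 3 (Map3k14 with 1 library left out: -0.0038 to 0.11). Tnip1 ranged from 0.61 to 0.68, Birc3 from 0.47 to 0.53 and Traf2 from 0.28 to 0.38. Over all genes, the count of 986 became 601 with DESeq2, 500 at an adjusted p of 0.01, and 508 to 966 with 1 library left out, lowest without NFL replicate 3 and then NFL replicate 2 (616); the cause was not tested. With library size alone 372 were higher and 600 lower, against 489 and 497. The count of pathway genes was 9 to 11 with 1 library left out and 9 to 14 over all alternatives. With 1 library left out, the log2 difference of the Traf1 to Traf2 ratio was -0.10 to 0.05, reversed without NFL replicate 2 (0.0526), that of Birc3 to Birc2 0.40 to 0.50 and that of Map3k14 to Traf3 -0.11 to -0.0058.

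With the replicate number as a block, 1049 genes, 4 members and 11 pathway genes passed. Correlations of deviations between samples of equal number were small (0.0115, 0.0148 and 0.00742), although each sample correlated best with its own number, a hint from the data only. Whether equal numbers pair the samples is not settled by these values. Tnfaip3 lay under the floor of 3 counts in every library, and its ratio to Tnip1 could not be computed under any setting. Groups of 3 libraries are too small for a test for single outlying samples.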
